A study of Mus musculus with 2 samples.

Results

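Integrins and laminins are 2 protein families that join cells to the extracellular matrix. The 38 genes described here are those of Mus musculus whose symbol names an integrin alpha or beta subunit or a laminin alpha, beta or gamma chain, and that have at least 1 protein-coding transcript; genes named for proteins that bind an integrin (Itgb1bp and Itgb3bp names) were left out. They are 38 of 55536 annotated genes, 22028 of which are protein-coding. The rule went by name and used no measured value, but it was set with earlier results of these data known. There are 18 integrin alpha, 9 integrin beta, 5 laminin alpha, 3 laminin beta and 3 laminin gamma genes, and all 38 are present in every deposited table.

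Total RNA, with ribosomal RNA reduced, was sequenced from cortex of the left cerebral hemisphere of B6CASTF1/J mice, a hybrid of C57BL/6 and CAST, all of them males aged 14 days. Both libraries, biological replicates 1 and 2, belong to 1 group, and each was made from 300 ng of RNA with ERCC spike-ins, synthetic RNAs of known amount. Each library has its own biosample entry, but the donor entry is the same and the label's "3x Males" leaves pooling unstated, so the spread between the libraries may be technical. With 1 group there is no comparison of conditions and no p-value, and every difference below is replicate 1 minus replicate 2.

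An integrin is a pair of 1 alpha and 1 beta subunit that spans the cell membrane and binds matrix or another cell outside and, in most cases, the actin cytoskeleton inside. The alpha and beta partners largely set what is bound: laminin, collagen, proteins with an arginine-glycine-aspartate (RGD) motif, or adhesion molecules on other cells. A laminin is a cross-shaped trimer of 1 alpha, 1 beta and 1 gamma chain, secreted into basement membranes. In the brain these lie around vessels, where endothelial cells, pericytes and astrocyte endfeet meet, and under the pia mater.

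The libraries held 28263266 (replicate 1) and 30862848 (replicate 2) expected counts on annotated genes, and 3 counts, the most that a count of 0 allows, correspond to 0.106 and 0.0972 counts-per-million (CPM). All 4 excitatory neuron markers of cortex were detected, with a summed level of 1534 transcripts-per-million (TPM) in replicate 1 and 1784 TPM in replicate 2. All 6 striatal neuron markers were past 2-fold higher in replicate 1, with sums of 412 TPM in replicate 1 and 89.1 TPM in replicate 2. The 5 choroid plexus markers summed to 33.5 and 124 TPM, most of it from Ttr (30.4 and 118 TPM). They did not share a direction: 2 were past 2-fold higher in replicate 2, and 1, Clic6, was past 2-fold higher in replicate 1. The 5 myelinating oligodendrocyte markers summed to 998 and 650 TPM. Vessel markers were close, at 156 and 151 TPM for 6 endothelial genes and 112 and 125 TPM for 6 mural genes. In these bulk samples fewer cells of a type and less RNA per cell cannot be told apart.

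Of the 38 genes, 27 had a TPM of at least 1 in each library and are called detected, a level that 58.8% of protein-coding genes had. A TPM of at least 5 in each was found for 14 of the 38, and for 45.9% of protein-coding genes. TPM is scaled by transcript length, so levels of different genes can be set side by side on it. Short transcript models can still change their order, as given below for several genes. The 27 detected genes were 11 of 18 integrin alpha, 6 of 9 integrin beta, 5 of 5 laminin alpha, 2 of 3 laminin beta and 3 of 3 laminin gamma genes. Another 4 genes (Itga10, Itga11, Itgb7, Lamb3) reached a TPM of 1 in 1 library only, and 7 (Itgal, Itgae, Itgad, Itga2, Itgax, Itgb6, Itgb2l) in neither. Summed over each class, integrin alpha genes stood at 95.6 TPM in replicate 1 and 103.5 TPM in replicate 2, and integrin beta genes at 70.4 and 74.8 TPM. Laminin alpha chains summed to 22.1 and 24.6 TPM, and beta chains to 34.4 and 30.9 TPM.

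Within the classes most neighbours in the order of mean level did not overlap between libraries. The exceptions among alpha subunits above a TPM of 1 were Itga3 and Itga1, Itga1 and Itga4, Itga4 and Itgam, and Itga5 and Itga8, and among beta subunits Itgb3 and Itgb4, and Itgb4 and Itgb2. No neighbouring laminin chains overlapped within a class.

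**Figure D1:**
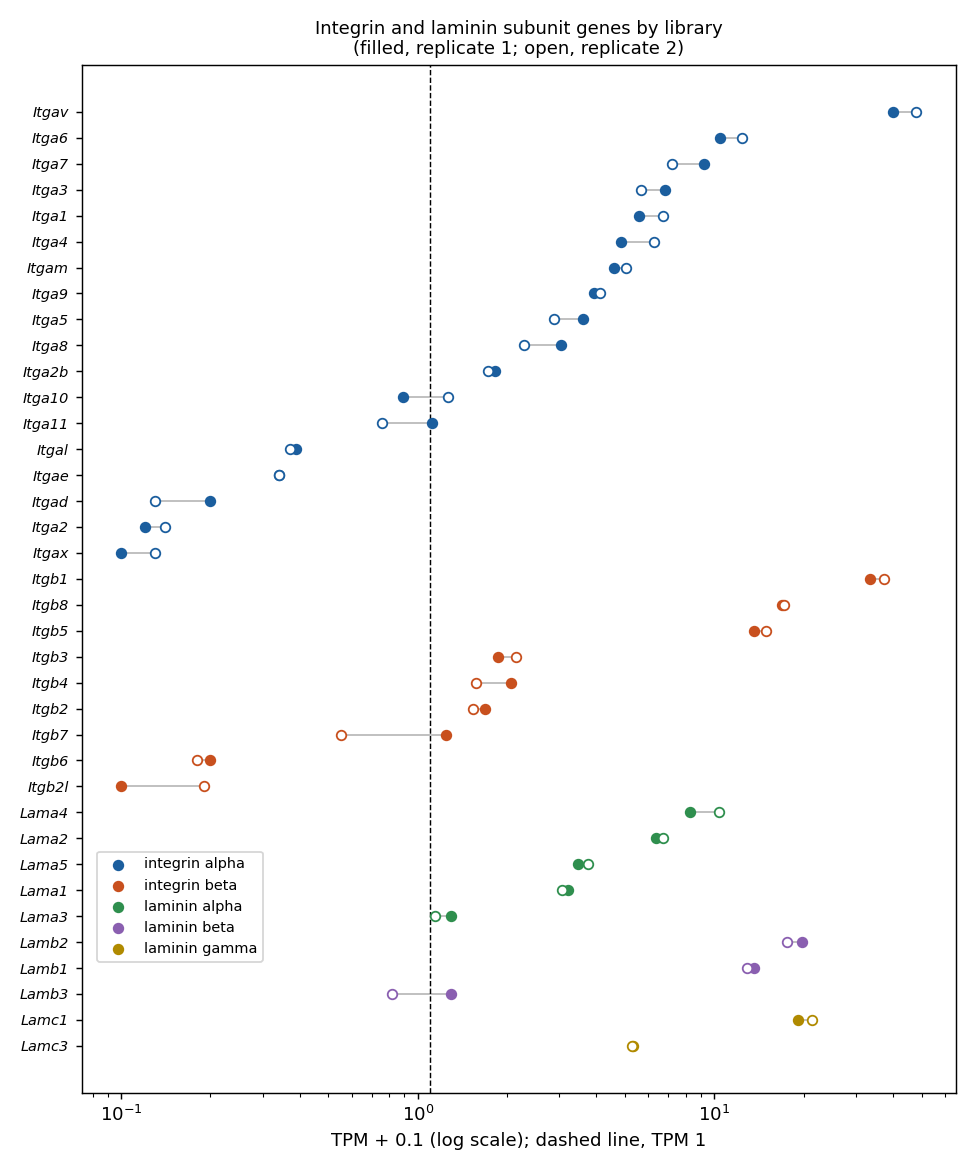
Level of 37 of the 38 genes in TPM + 0.1 on a log scale, filled for replicate 1 and open for replicate 2, ordered by mean level within each subunit class. Itgav and Itgb1 stand highest in both libraries, and of the genes plotted with at least 10 counts in 1 library, Itgb7 has its circles farthest apart.

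Itgb1, the beta subunit shared by the laminin, collagen and fibronectin receptors, was the highest integrin beta gene. It stood at 33.5 TPM in replicate 1 and 37.3 TPM in replicate 2 (mean 35.4 ± 2.66, SD, n = 2), and took 47.6% and 49.8% of the summed beta level. It lies on chromosome 8 (mm10, chr8:128685654-128733200, plus strand). Nearly all of its level, 94.6% and 98.7%, was assigned to Itgb1-201, its only complete protein-coding transcript of 3815 nt. The beta-4 gene Itgb4, whose product pairs with alpha-6 in epithelial hemidesmosomes, stood at 1.96 and 1.47 TPM, and the log2 ratio of Itgb1 over Itgb4 was 4.30 ± 0.38.

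Itgav, the alpha subunit of the RGD receptors that also bind latent TGF-beta, was the highest of the 38 genes in the gene tables. It stood at 40.1 TPM in replicate 1 and 47.7 TPM in replicate 2 (mean 43.9 ± 5.37), above 88.1% of protein-coding genes, and took 42.0% and 46.1% of the summed alpha level. The gene covers 82.5 kb of chromosome 2 (mm10, chr2:83724397-83806916, plus strand). Its place above Itgb1 rests on short transcript models. The complete protein-coding transcripts of Itgav held 21.4 and 24.5 TPM, below the 31.7 and 36.8 TPM of those of Itgb1. Of its incomplete models, Itgav-206 (688 nt) took 21.2% and 20.3% of the gene's level, and Itgav-205 (463 nt) took 16.5% and 25.7%. In the second transcript table, made directly from the reads, Itgav stood at 45.3 and 56.1 TPM and Itgb1 at 50.3 and 56.4 TPM.

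Of the beta subunits grouped here as partners of alpha-v, Itgb8 and Itgb5 were high and Itgb3 and Itgb6 low. Itgb1, described above, was not placed in that group. Itgb8, whose pair with alpha-v is known in brain for the activation of latent TGF-beta, stood at 16.8 TPM in replicate 1 and 17.2 TPM in replicate 2 (mean 17.0 ± 0.24). Itgb5, a vitronectin receptor subunit, stood at 13.5 and 14.8 TPM (mean 14.2 ± 0.91). Itgb8 was thus higher than Itgb5 in both libraries, with a log2 ratio of 0.26 ± 0.07. The second transcript table gave a mean of -0.05, without a direction, so the order of these genes depends on the quantification. Itgb3, the beta subunit of platelets and of activated endothelium, stood at 1.76 and 2.05 TPM, and Itgb5 exceeded it by 2.83 ± 0.06 on the log2 scale. Itgb6, an epithelial subunit, had 9 and 8 counts, or 0.10 and 0.08 TPM.

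**Figure D2:**
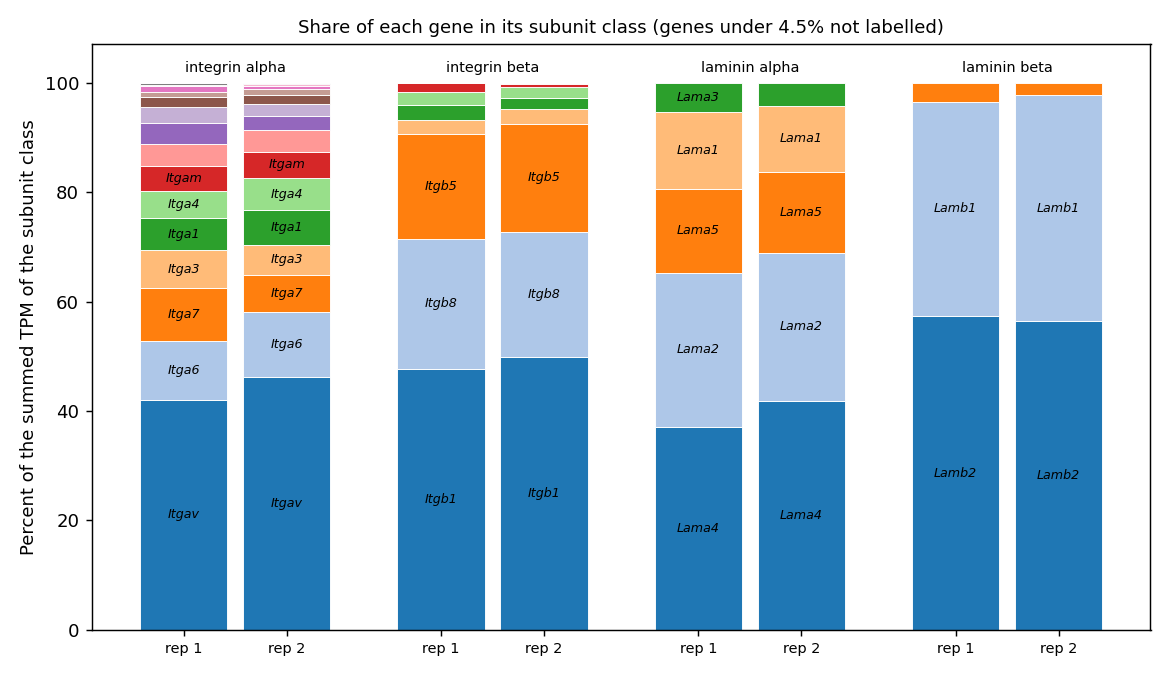
Percent of the summed TPM of 4 subunit classes taken by each gene, with 1 bar for replicate 1 and 1 for replicate 2 in every class. In the gene tables plotted, Itgav, Itgb1, Lama4 and Lamb2 take the largest share of their class in both libraries; over complete transcripts Lamb1 is larger, at 51.7% and 54.3% against 43.5% and 42.6% for Lamb2, and also in the second table.

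The other alpha subunits of the RGD group were far below Itgav. Itga5, the fibronectin receptor alpha subunit, stood at 3.52 TPM in replicate 1 and 2.77 TPM in replicate 2. Itga8, a receptor subunit for nephronectin, stood at 2.93 and 2.19 TPM, and the library ranges of Itga5 and Itga8 overlap. The log2 ratio of Itgav was 3.77 ± 0.41 over Itga5 (3.18 over complete transcripts) and 4.06 ± 0.46 over Itga8. Itga2b, the alpha subunit of the platelet fibrinogen receptor, stood at 1.72 and 1.62 TPM from 32 counts in each library. Of that level 90.1% and 88.8% lay in non-coding transcripts, and its complete protein-coding transcript held 0.17 and 0.18 TPM. Among 4 platelet markers, 1 reached a TPM of 1 in both libraries.

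The 3 laminin-binding alpha subunits, which pair with beta-1, were all above a TPM of 5, with a sum of 26.3 TPM in replicate 1 and 25 TPM in replicate 2. Itga6 led at 10.4 and 12.4 TPM (mean 11.4 ± 1.39), Itga7 stood at 9.13 and 7.11 TPM (mean 8.12 ± 1.43), and Itga3 at 6.74 and 5.54 TPM (mean 6.14 ± 0.85). Itga6 exceeded Itga3 by 0.88 ± 0.37 and Itga7 by 0.49 ± 0.43 on the log2 scale. Over complete protein-coding transcripts the ratio to Itga7 was 0.32 ± 0.37, so the mean did not exceed the SD. Itga6 was still higher in both libraries there, at 5.82 and 7.29 TPM against 5.56 and 4.83 TPM for Itga7. The complete transcript Itga6-201 held 56.0% and 59.0% of the Itga6 level, and the processed transcript Itga6-203 held 37.8% and 35.3%.

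These 3 genes have long-known splice forms, and the deposited transcript tables list a transcript for each form. The exons that set the forms apart are shown here, a choice made after their values were seen. In Itga3 and Itga6 a cassette exon near the end of the gene, when included, carries its own stop codon and gives the A form of the cytoplasmic tail; when it is skipped, the next exon gives the B form. Each line is read 5′ to 3′ on the transcript from the GENCODE M21 sequences on mm10, with the last 15 bases of the exon before in lower case. Capitals mark the coding bases of the cassette exon through its stop codon in the A forms, and the first 30 bases of the next exon in the B forms.
Itga3-201, A form: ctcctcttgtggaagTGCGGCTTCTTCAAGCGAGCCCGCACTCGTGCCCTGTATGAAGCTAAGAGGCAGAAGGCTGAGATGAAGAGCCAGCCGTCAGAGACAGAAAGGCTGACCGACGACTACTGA
Itga3-203, B form: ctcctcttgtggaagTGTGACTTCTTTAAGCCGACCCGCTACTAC
Itga6-201, A form: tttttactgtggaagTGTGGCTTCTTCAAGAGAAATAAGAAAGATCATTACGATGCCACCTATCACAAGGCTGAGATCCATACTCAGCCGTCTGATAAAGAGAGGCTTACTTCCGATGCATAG
Itga6-202, B form: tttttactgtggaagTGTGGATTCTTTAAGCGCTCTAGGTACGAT
The Itga3 exon (chr11:95046449-95046590, minus strand) is 142 nt long with 111 coding bases counting the stop, and the Itga6 exon (chr2:71853534-71853663, plus strand) is 130 nt with 108. The longest run the printed coding parts share is GGCTTCTTCAAG, 12 nt from position 4 of each exon.

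Both tail forms of Itga3 were listed with a level, and of Itga6 the A form alone had a level in the first transcript table. Of the TPM in Itga3 transcripts that decide between the forms, 61.7% in replicate 1 and 60.8% in replicate 2 included the cassette exon (mean 61.2 ± 0.65), at 3.12 and 2.60 TPM for inclusion and 1.94 and 1.68 TPM for skipping. The second table gave 67.9% and 56.0%. For Itga6 the including transcript stood at 5.82 and 7.29 TPM and the skipping transcript was listed at 0 in both libraries, or 100% inclusion. The second table gave 71.2% in replicate 1 and 99.6% in replicate 2. The share for Itga6 in replicate 1 therefore depends on the quantification.

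Itga7 has a pair of exons used one or the other in its extracellular part, known as X1 and X2. They are printed whole in capitals, with the neighbouring 15 bases of the transcript on each side in lower case, which are the same in both transcripts.
Itga7-201, 120 nt exon: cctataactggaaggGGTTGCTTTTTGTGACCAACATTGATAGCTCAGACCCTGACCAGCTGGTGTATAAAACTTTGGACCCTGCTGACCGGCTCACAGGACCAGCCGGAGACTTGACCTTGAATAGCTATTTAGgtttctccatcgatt
Itga7-202, 132 nt exon: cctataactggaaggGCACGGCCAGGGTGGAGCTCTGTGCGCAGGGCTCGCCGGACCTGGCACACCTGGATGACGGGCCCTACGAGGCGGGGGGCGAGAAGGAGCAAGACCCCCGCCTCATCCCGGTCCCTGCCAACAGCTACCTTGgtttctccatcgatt
The transcript with the 120 nt exon (chr10:128941822-128941941, plus strand) stood at 3.69 TPM in replicate 1 and 3.91 TPM in replicate 2. The one with the 132 nt exon (chr10:128941445-128941576, plus strand) stood at 1.87 and 0.92 TPM. The 120 nt exon thus held 66.4% and 81.0% of the pair (mean 73.7 ± 10.3), and 65.2% and 76.1% in the second table. It was the larger share in both libraries and both tables.

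Of 4 collagen-binding alpha subunits, Itga1 alone was detected in both libraries. It stood at 5.48 TPM in replicate 1 and 6.60 TPM in replicate 2 (mean 6.04 ± 0.79), of which its complete protein-coding transcript Itga1-201 held 51.4% and 45.6% and the retained-intron transcript Itga1-206 held 37.5% and 38.1%. Itga2, its neighbour on chromosome 13 at 21 kb, had 3 and 5 counts, or 0.02 and 0.04 TPM. Itga10 stood at 0.79 and 1.16 TPM and Itga11 at 1.02 and 0.66 TPM, and their ranges overlap. Itga1 shares 685 exonic bases on the same strand with Gm49395, which had 31.9 and 32.7 counts. Itga10 shares 1739 with Gm42957, which had 6.46 and 12.9 counts.

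Itga4 and Itga9, whose products bind VCAM-1, fibronectin and tenascin-C, stood close together. Itga4 had 4.74 TPM in replicate 1 and 6.16 TPM in replicate 2 (mean 5.45 ± 1.00), and Itga9 had 3.84 and 4.03 TPM (mean 3.94 ± 0.13). The log2 ratio of Itga4 over Itga9 was 0.45 ± 0.21. In the second table Itga4 stood at 8.13 and 9.58 TPM and Itga9 at 11.9 and 11.6 TPM, a ratio of -0.41, and over complete transcripts the ratio was 0.32 ± 0.44, without a direction, so their order depends on the quantification. Itga4 shares 1124 exonic bases with Cerkl on the opposite strand, which had 37.2 and 21.2 counts.

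Of the 8 leukocyte integrin genes, 2 were detected, and both encode chains of complement receptor 3, which microglia carry. Itgam, its alpha chain (CD11b), stood at 4.49 TPM in replicate 1 and 4.94 TPM in replicate 2 (mean 4.71 ± 0.32), and Itgb2, its beta chain (CD18), at 1.58 and 1.44 TPM (mean 1.51 ± 0.10). Itgal, the alpha chain of LFA-1, stood at 0.29 and 0.27 TPM, and Itgae, which marks tissue lymphocytes, at 0.24 TPM in each. The genes next to Itgam on chromosome 7, Itgax (CD11c, at 11.1 kb) and Itgad (3.72 kb further), had 0 and 2.48 counts and 3 and 2.52 counts. Itgb7, a partner of alpha-4 on lymphocytes, stood at 1.15 and 0.45 TPM, and Itgb2l had 0 and 2 counts. The log2 ratio of Itgam over Itgal was 3.66 ± 0.15 with the pseudocount of 0.1 TPM, and 4.03 and 2.16 with 0.01 and 1. No ratio is given over Itgax, since it would be set by the pseudocount. That of Itgb2 over Itgb7 was 0.96 ± 0.75, and 1.79 in the second table. Itgam shares 3450 exonic bases on the same strand with Gm49368, which was listed at 0 in both libraries. All 6 microglia markers were detected, with sums of 165 and 160 TPM, against 1 of 6 genes on the leukocyte list, with sums of 1.62 and 1.29 TPM and Ly6g at 0 in both. The 1 detected was Ptprc (CD45, 1.29 and 1.13 TPM), which microglia also carry.

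All 5 laminin alpha chains were detected, led by the vascular and mesenchymal chains. Lama4, the chain of endothelial and pericyte basement membrane, stood at 8.17 TPM in replicate 1 and 10.3 TPM in replicate 2 (mean 9.23 ± 1.499), or 37.0% and 41.9% of the alpha chains. Lama2, the chain of laminin-211 known from muscle, Schwann cells and astrocytic basement membrane, stood at 6.24 and 6.62 TPM (mean 6.43 ± 0.27). Lama4 exceeded Lama2 in both libraries, with a log2 ratio of Lama2 over Lama4 of -0.51 ± 0.17. That ratio was -1.18 in the second table and -1.09 over complete transcripts, which held 2.86 and 3.01 TPM of Lama2. Lama5, an endothelial chain, stood at 3.36 and 3.64 TPM. Lama1, known from the pial basement membrane, stood at 3.11 and 2.96 TPM. Lama3, known from epithelia, was lowest at 1.19 and 1.04 TPM. Lama2 exceeded Lama1 by 1.06 ± 0.11 (0.42 over complete transcripts) and Lama4 exceeded Lama5 by 1.37 ± 0.15 on the log2 scale.

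Of the beta chains Lamb2 and Lamb1 were high and Lamb3 was low. Lamb2, a chain of vascular, synaptic and pial laminins, stood at 19.7 TPM in replicate 1 and 17.4 TPM in replicate 2 (mean 18.6 ± 1.61), or 57.3% and 56.4% of the beta chains. Lamb1, the chain of laminin-111 and laminin-411, stood at 13.5 and 12.8 TPM (mean 13.1 ± 0.51), so the log2 ratio of Lamb1 over Lamb2 was -0.50 ± 0.07. This order rests on short models of Lamb2. The incomplete Lamb2-206 (345 nt) took 31.9% and 23.3% of the gene's level and Lamb2-207 (473 nt) 10.5% and 10.3%. Over complete protein-coding transcripts Lamb2 stood at 9.60 and 9.17 TPM and Lamb1 at 11.4 and 11.7 TPM, a ratio of 0.30 in favour of Lamb1. In the second table Lamb2 stood at 17.3 and 15.4 TPM and Lamb1 at 20.9 and 19.2 TPM, a ratio of 0.30. Lamb3, a chain known from epithelia, stood at 1.19 and 0.72 TPM.

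Lamc1, the gamma chain of most laminins, was the highest laminin gene by mean, at 19.1 TPM in replicate 1 and 21.3 TPM in replicate 2 (mean 20.2 ± 1.58), and its range overlaps that of Lamb2. Its complete transcript Lamc1-201 held 93.3% and 84.7% of its level. Lamc3, a gamma chain described in brain and retina, stood at 5.21 and 5.17 TPM (mean 5.19 ± 0.03). Its log2 difference between the libraries was 0.04. Lamc1 exceeded Lamc3 by 1.94 ± 0.12 on the log2 scale.

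**Figure D3:**
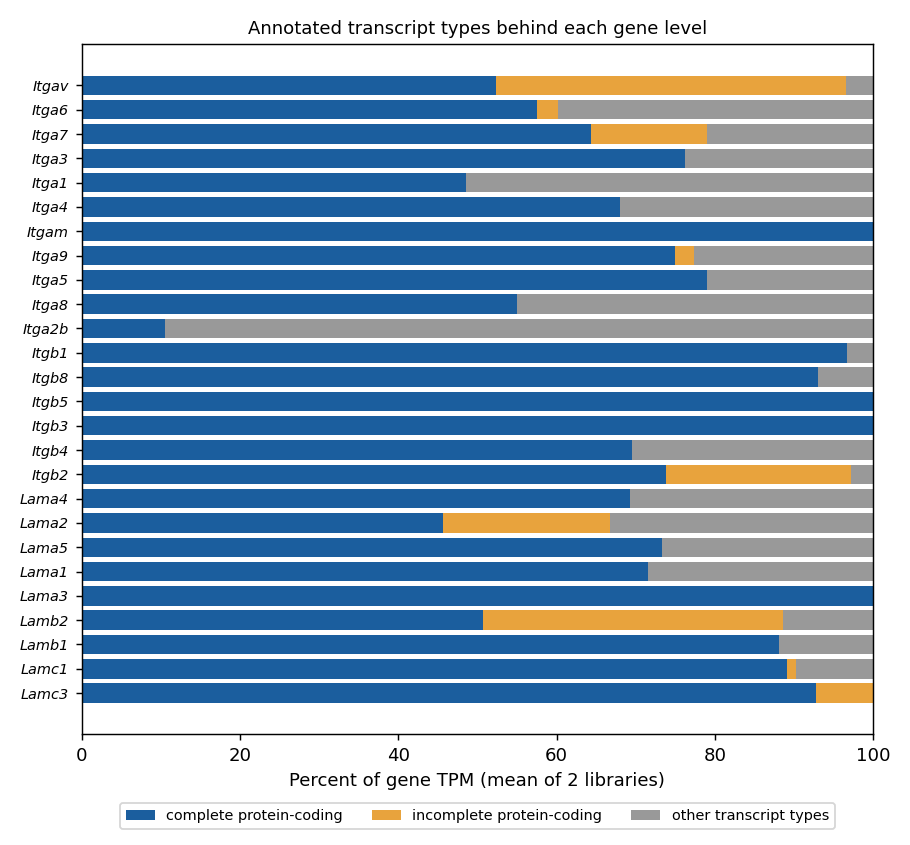
Percent of each gene's TPM, as the mean of the 2 libraries, in complete protein-coding, incomplete protein-coding and other annotated transcripts, for 26 of the 27 genes detected in both libraries. Itgb5, Itgb3, Itgam and Lama3 are at 100% complete transcripts, and Itga2b is lowest, near 10%.

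The transcript makeup bears on the levels of several genes. Among the 27 detected genes the median share of TPM in complete protein-coding transcripts was 73.1%, against 82.5% over 12944 protein-coding genes detected in both libraries. The highest transcript was a complete protein-coding one in 26 of the 27, the exception being Itga2b with the processed transcript Itga2b-207. It was the same transcript in both transcript tables for 25 genes, and Itgb4 was among the others. It held over 50% of the gene's level in both libraries for 18. Of the genes above a TPM of 5, Itgb8-201 held 92.5% and 93.5%, Itgb5-202 87.8% and 76.8%, Lamb1-201 84.7% and 89.7%, and Lamc3-201 96.3% and 89.3%. Lama4-201 held 70.6% and 68.0%, whereas Lama2-201 held 41.8% and 44.3%, Itga7-201 40.4% and 55.02%, and Itga3-201 43.6% and 40.3%. Itgav-201 held 53.5% and 51.4%, and Lamb2-201 48.7% and 52.6%. In the second table the mean share moved by more than the SD of the libraries for 18 of the 27 genes. Itgb5-202 held 51.3% and 34.1% there, Lama2-201 71.8% and 59.5%, and Lamb2-201 78.8% and 84.5%.

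**Figure D4:**
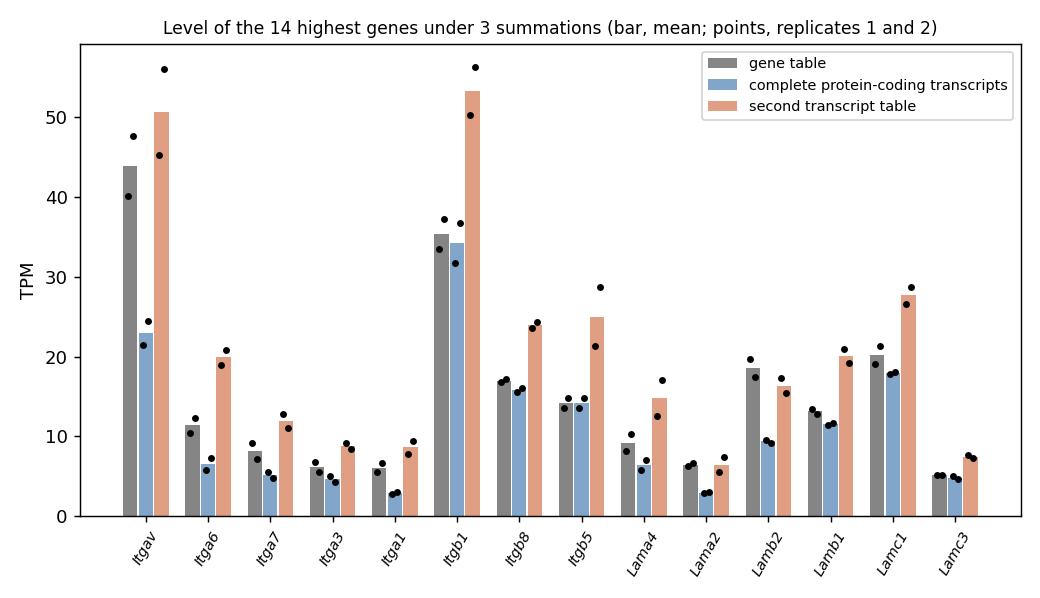
Level in TPM of the 14 genes at 5 TPM or more in both libraries, summed in 3 ways (gene table, complete protein-coding transcripts, second transcript table), with bars for the mean and points for replicates 1 and 2. Complete transcripts put Itgb1 above Itgav and Lamb1 above Lamb2.

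The second table gave higher TPM for most of the 12911 protein-coding genes compared. The median ratio to the gene table was 1.47 over the 27 genes against 1.55 over those 12911. From the 5th to the 95th percentile, protein-coding genes spanned 1.22 to 2.26. Itga9 lay above that span at 2.99. Below it were Lamb2 at 0.88, Lama2 at 1.00, Lama5 at 1.07, Lama1 at 1.14, Itga5 at 1.15 and Itgav at 1.16.

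Differences between the libraries could be taken for the 33 genes with at least 10 counts in 1 library. Their median log2 difference in CPM was -0.03, with 15 genes higher in replicate 1 and 18 in replicate 2, and the median size of the difference was 0.19, against 0.12 over 14875 protein-coding and 0.14 over all 18965 genes kept by the same filter. With the prior count of 2, which draws low counts towards each other, 0 of the 33 were past 2-fold, and with a prior count of 0.5 Itgb7 was. Of all kept genes 3.94% were past 2-fold (2.50% higher in replicate 1 and 1.44% higher in replicate 2), and of protein-coding genes 2.74%, so a count of 0 or 1 among 33 is near the background. Itgb7 came nearest at 0.96, from 29 counts in replicate 1 and 15 in replicate 2, a ratio of 2.07 in CPM without the prior count, with a 95% counting interval of 1.07 to 4.16. Intervals and floors cover counting error only.

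**Figure D5:**
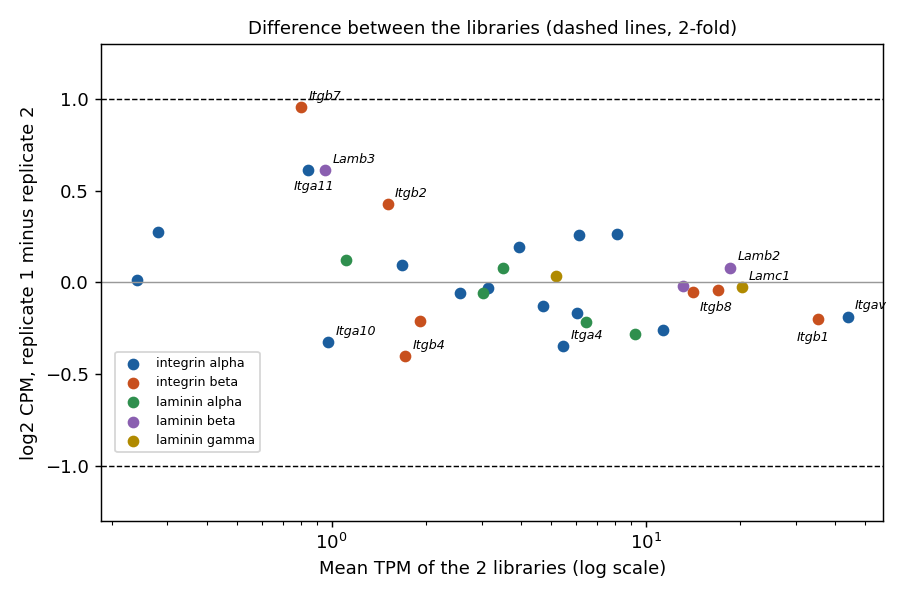
Log2 CPM difference, replicate 1 minus replicate 2, of 32 of the 33 genes with at least 10 counts in 1 library, against mean TPM on a log scale. All points lie between the dashed 2-fold lines, and those above 0.5 (Itgb7, Itga11 and Lamb3) have mean levels below 1 TPM.

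Itga11 and Lamb3 differed by 0.61 each, and Itgb2 by 0.43. On the other side Itgb4 was at -0.40 and Itga4 at -0.35. For Itgb4 the gene-table TPM went the other way from the counts. It was 1.96 TPM from 116 counts in replicate 1 and 1.47 TPM from 165 counts in replicate 2. The second table also went that way (2.54 and 2.34 TPM), but complete transcripts went with the counts (1.02 and 1.28 TPM). The processed transcripts Itgb4-207 (521 nt) and Itgb4-206 (375 nt) held 34.5% and 13.4% of the level in replicate 1, and both stood at 0 in replicate 2. The striatal, choroid plexus and oligodendrocyte marker sums given above differed between the same libraries, and their part in the differences of Itgb7, Itga11 and Lamb3 was not tested. Itgav (-0.19), Itgb1 (-0.20), Itgb8 (-0.04), Lamb1 (-0.02) and Lamc1 (-0.03) differed by no more than 0.20.

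The partners of these genes outside the cell were detected in most cases. Over all the partner lists, inside the cell as well as outside, 0 genes with at least 10 counts in 1 library were past 2-fold between the libraries. Icam4, Madcam1 and Fermt1, of which Fermt1 acts inside the cell, had fewer counts. Of all protein-coding genes 58.8% were detected, and 2.74% of those kept by the filter were past 2-fold. The 0 therefore does not set these genes apart. All 8 basement membrane genes were detected, led by Sparc, a collagen-binding matrix protein (180 TPM in replicate 1 and 177 TPM in replicate 2), Agrn (agrin, 86.2 and 90.0 TPM) and the collagen IV genes Col4a1 (50.02 and 53.8 TPM) and Col4a2 (36.6 and 35.8 TPM). All 6 genes on a list of other laminin receptors and associated proteins were detected. Dag1, the dystroglycan gene, stood at 56.2 and 56.9 TPM and Sgcb at 28.4 and 27.9 TPM. Cd151, a tetraspanin that binds the laminin receptors, stood at 14.7 and 15.4 TPM, and Mcam at 7.84 and 9.24 TPM.

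The ligands of the other integrins were also present. All 14 matrix ligands were detected, led by Tnr (tenascin-R, 72.9 TPM in replicate 1 and 68.8 TPM in replicate 2), Mfge8 (70.4 and 65.5 TPM), Reln (reelin, 49.5 and 48.7 TPM) and Vtn (vitronectin, 44.4 and 47.7 TPM). Npnt, the nephronectin gene, stood at 21.6 and 41.3 TPM, a log2 CPM difference of -0.97, just short of 2-fold. Of 9 immunoglobulin-type and cadherin ligands, 6 were detected. Icam5, an adhesion molecule of forebrain neurons, stood at 142 and 134 TPM, Vcam1 at 17.8 and 15.8 TPM, Jam3 at 13.6 and 12.3 TPM, and Jam2 at 10.7 and 11.9 TPM.

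The genes that link alpha-v beta-8 to TGF-beta were all detected, 10 of 10, with Ltbp4 (29.98 TPM in replicate 1 and 28.5 TPM in replicate 2), Ltbp3 (13.3 and 12.1 TPM), Tgfbr1 (8.54 and 8.77 TPM) and Tgfbr2 (6.01 and 6.87 TPM) highest by mean. Ltbp genes encode proteins that hold latent TGF-beta in the matrix. Inside the cell, 23 of 24 activation and adhesion genes were detected. The kinase genes Ptk2b (103 and 91.2 TPM), Fyn (83.6 and 74.1 TPM) and Ptk2, which encodes focal adhesion kinase (55.2 and 57.7 TPM), stood highest together with Tln2, a talin that binds beta tails (57.4 and 55.6 TPM). The exception was Fermt1, the epithelial kindlin, at 0.03 and 0.05 TPM.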

How the data were processed

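Gene and transcript tables were made from transcriptome alignments (mm10, GENCODE M21), per the file headers and deposited descriptions. They hold deposited expected counts, which are estimated reads without normalization, and deposited TPM, scaled over every entry of the file. The deposited percent gives each transcript's part of its gene. A second transcript table, made directly from reads, holds deposited estimated counts and TPM, summed here per gene. Column names match RSEM and kallisto output, but the tools, their versions and the strand setting were not given in the sources used here. Therefore 12 members that share exonic bases with another gene (9 on the opposite and 4 on the same strand) may share reads with it.

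Expected counts were rounded, and log2 CPM was computed with edgeR 4.0.16 (R 4.3.3; TMM, prior count 2, at least 10 counts in 1 library). DESeq2 1.42.0 gave alternative size factors. Pair ratios are log2 of TPM + 0.1, for 22 pairs, with a direction only where the libraries agree in sign and the mean is larger than the SD. Python 3.11.15, pandas 2.3.3, scipy 1.17.1 and matplotlib 3.10.9 did the rest, and the difference step was tested on simulated counts. Count intervals are exact, at 95%. Complete transcripts are protein-coding ones not marked with an incomplete end; summing them alone was chosen after seeing the data. Genes are named at a TPM of 5 in both libraries, past 2-fold, or in a fixed pair, and companions as the 4 highest of each list; other named genes, and the exon sequences, were chosen after their values were seen. The members and lists were chosen with earlier results of these data known. Of the 38 members, 1 of the set is not reported here; it stays in the counts over the set.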

Additional observations from a re-analysis of the deposited data

How the results depend on the processing

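The count of 27 detected genes became 30 at a TPM of 0.5, 33 at 0.1, 30 in the second table, 30 relative to protein-coding genes alone and 25 over complete transcripts, and ranged from 28 (without replicate 1) to 30 (without replicate 2). With a prior count of 0.5, 1 gene, Itgb7, was past 2-fold; the count was 0 under every other setting run. The median difference of -0.03 was 0.002 with library size alone, which moved the median of all genes to 0.03, and -0.019 on counts of the second table. Of 22 pairs, 20 had the first gene higher, and 19 in the second table or over complete transcripts. Over complete transcripts Itga6 over Itga7 and Itga4 over Itga9 (0.32 each) lost their direction because the mean was below the SD. Their sign was unchanged in both libraries. In the second table Itgb8 over Itgb5 lost its direction, with 0.147 in replicate 1 and -0.239 in replicate 2 (mean -0.046). The ratios that turned were Itga4 over Itga9 (-0.41) and Lamb1 over Lamb2 (0.30) in the second table, and Lamb1 over Lamb2 over complete transcripts (0.30). Short Lamb2 models, left out over complete transcripts by construction, account for that last one, and the cause of the others was not tested. No ratio turned when either library was left out. No paired analysis was possible because there is 1 group. Depth limits Itgb6, Itgad, Itgb2l, Itga2 and Itgax, with 9 counts or fewer.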
